A study of Homo sapiens with 42 samples.

Results

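Gene expression was compared between 2 lines of 786-O cells that carried the same kind of transgene, one coding for HIF-2α and the other for HIF-2αDM, a HIF-2α with the changes R171A and V192D, made so that it cannot pair with HIF-1β. These were 6 of the 42 RNA-seq libraries of the series, 3 per line, taken by their labels from the first sequencing batch. 786-O is an established human clear cell renal carcinoma line without functional VHL, so that all lines, the controls included, hold stable endogenous HIF-2α, and it lacks functional HIF-1α. Both transgenes were driven by the weak L30 promoter, carried V5 and Halo tags, and were integrated into WT cells by transposition with puromycin selection. Neither line was described as a single clone. Groups used beside them were WT 786-O cells, the HIF-2α R27E line, whose transgene has a change in the DNA-binding domain, and the HIF-1α and HIF-1αDM (R170A and V191D) lines, all of the first batch, and WT and HIF-2α libraries of the second batch, with 3 libraries each. The genotype label of the HIF-2αDM libraries names HIF-1α, while their titles name HIF-2α, and they were grouped by their titles. EPAS1, which codes for HIF-2α, was raised in them over WT cells, and HIF1A was not.

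Hypoxia-inducible factors bind DNA as a pair of an α subunit and HIF-1β, the product of ARNT. Each partner gives a basic helix-loop-helix domain that contacts DNA and PAS domains that hold the pair together, and the pair recognises short sites with the core ACGTG or GCGTG. In cells without VHL the α subunit escapes degradation in normal oxygen, and HIF-2α is then regarded as a driver of clear cell renal carcinoma. A comparison of HIF-2α with HIF-2αDM asks which genes change with added HIF-2α that can pair with HIF-1β. The line beside it went through the same integration and selection. Each construct was read in a single line, so that the mutation and other differences between lines cannot be told apart. Both lines keep endogenous HIF-2α, and genes not called may still need pairing. The difference between such lines is called the dimerization effect below for short.

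Levels are given as normalized counts, which are reads per gene scaled by edgeR's TMM method to a common library size, and as mean ± SD with n = 3 libraries. Log2 changes are HIF-2α minus HIF-2αDM unless another pair is named, and are followed by their standard error and by the Benjamini-Hochberg adjusted p of edgeR's quasi-likelihood test. A gene was called at an adjusted p of at most 0.01 and a fold of at least 2. The study names the libraries biological replicates, but the labels do not say that they came from separate cultures, and p-values measure the spread between these libraries. The HIF-2α libraries held 47720333 to 76846996 counted reads and the HIF-2αDM libraries 61601381 to 93774732, so that 3 reads, the smallest amount taken as detectable, were 0.0320 to 0.0629 CPM (reads scaled to a common library total). The 10 most abundant genes took 9.17% to 10.8% of the reads with HIF-2α and 7.12% to 8.25% with HIF-2αDM, and their part in the results was not tested.

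EPAS1 (chr2:46293667-46386697 on hg38, plus strand) did not pass the test between the lines. Its counts, which sum the endogenous gene and the transgene, were 40654, 41479.8 and 51949 with HIF-2α and 54273, 43759 and 47966 with HIF-2αDM (log2 change -0.12 ± 0.20, adjusted p = 0.795). Library ranges overlapped, and both lines lay above WT cells, at 14498 ± 2021. The HIF-2α R27E line was at 56676 ± 10267. ARNT, the gene of the partner HIF-1β, also overlapped between the lines, at 1538 ± 327 and 1393 ± 128 (log2 change 0.14 ± 0.23, adjusted p = 0.801). HIF1A, the gene of the paralog HIF-1α, differed. It was at 667, 846 and 1216 with HIF-2α and at 182, 187 and 209.6 with HIF-2αDM, with no overlap (log2 change 2.24 ± 0.24, adjusted p = 2.01e-07). WT cells held 242 ± 13.5 and R27E cells 212 ± 55.2, near the HIF-2αDM level. HIF1A overlaps antisense genes. Counting dropped reads that fell on annotated stretches of both, and ignored strand elsewhere.

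**Figure D1:**
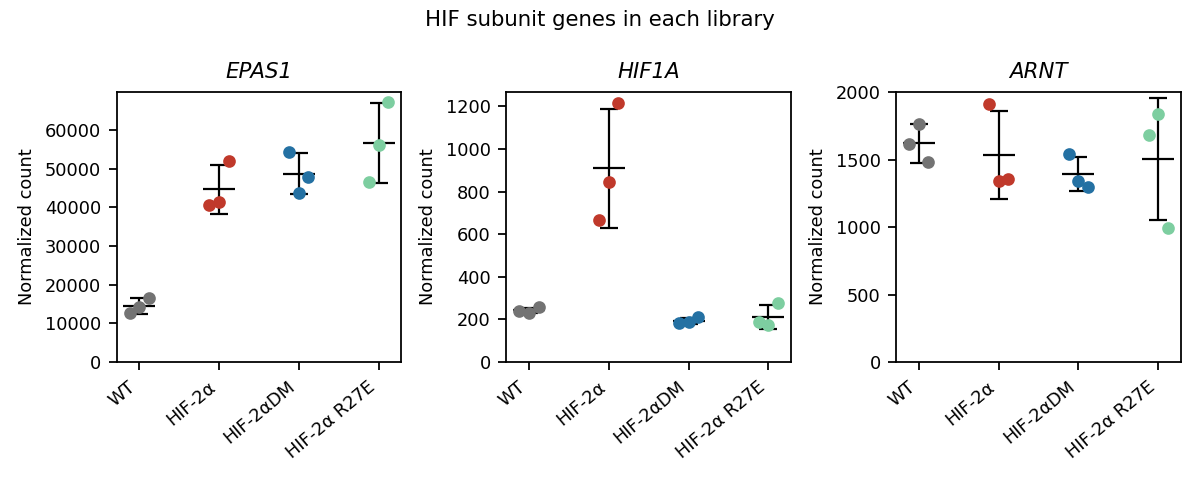
Normalized counts of EPAS1, HIF1A and ARNT in each library (points) with the group mean and SD (bars) in WT, HIF-2α, HIF-2αDM and HIF-2α R27E cells of the first batch. EPAS1 overlapped between HIF-2α and HIF-2αDM libraries, while HIF1A stood apart in the HIF-2α line alone among these 4 groups.

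Of 23410 genes tested, 581 were higher with HIF-2α (2.48% of the genes tested) and 347 were lower (1.48%). Changes upward were larger. Among the higher genes 103 exceeded a 16-fold difference, 187 lay between 4-fold and 16-fold and 291 between 2-fold and 4-fold. Among the lower genes these numbers were 17, 101 and 229. In 48 of the higher genes each HIF-2αDM library held at most 3 reads, and 19 had no read in that line. In 24 of the lower genes each HIF-2α library held at most 3 reads, and 2 had no read there. Most called genes were protein-coding, 516 of the higher and 310 of the lower, and 48 and 32 were long noncoding RNAs. Median log2 change over all genes tested was -0.05. With 1 library left out, the higher genes numbered 447 to 539 and the lower ones 264 to 303, and 385 and 191 genes were called in every such fit.

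The largest folds were sought among called genes with a mean of at least 50 counts and no overlap between the lines, and the 10 largest rises by this rule were genes with few or no reads in the mutant line. GFRA2, a cell surface co-receptor for neurturin, was at 22785, 22342 and 27077 with HIF-2α and at 15.0, 16.7 and 42.8 with HIF-2αDM (log2 change 9.84 ± 0.59, adjusted p = 5.63e-12). POU3F3 (chr2:104853287-104858574, plus strand), a POU-domain transcription factor, was at 303, 434 and 633 with HIF-2α and had no read in any HIF-2αDM library, which made it at least 473-fold higher against a floor of 3 reads over the group. LHX5, a LIM homeobox factor, was at 986, 1126 and 1678 against 0, 1.04 and 1.40, a ratio of 1427 with a 95% counting interval of 488 to 6924. Without HIF-2αDM replicate 3 the LHX5 ratio was 2403 and the log2 change of GFRA2 was 10.55. Its antisense neighbour LHX5-AS1, for which reads on stretches annotated to both genes were dropped, was at 171, 155 and 194 and had no read with HIF-2αDM. DESeq2 did not call LHX5-AS1 (adjusted p = 0.338), which edgeR did (adjusted p = 0.000141).

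The other 6 of these 10 genes had almost no reads with HIF-2αDM. CASP14, a caspase of keratinocyte differentiation, was at least 299-fold higher, from no read with HIF-2αDM to 371, 229 and 266. DMKN, which codes for the secreted dermokine, was at 359, 100.4 and 112 and at least 197-fold higher, with the first HIF-2α library above the other two. RNASE1, a secreted ribonuclease, was at 231, 35.5 and 95.6 and at least 125-fold higher, also with the first library above the others. Without HIF-2α replicate 1 the bounds were 109.7-fold for DMKN and 67.8-fold for RNASE1. The noncoding AC005906.2 was at least 153-fold higher. MLPH, a linker in melanosome transport, and MAGEA3, a cancer-testis antigen with near-identical family members, were at 456 and 473 with HIF-2α and at 0.347 and 0.467 with HIF-2αDM. MLPH, MAGEA3 and POU3F3 had more reads in WT cells than in the mutant line, at 33.4 ± 8.01, 26.5 ± 8.74 and 10.7 ± 6.64. For GFRA2, LHX5, CASP14 and RNASE1 WT cells were also low, with means between 0 and 11.9.

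The 10 largest falls by the same rule were smaller than the 10 largest rises, and each of these genes kept reads in the HIF-2α line. TMC6, a transmembrane channel-like gene, was at 7.90, 2.95 and 8.50 with HIF-2α and 98.3, 96.9 and 109 with HIF-2αDM (log2 change -3.93 ± 0.48, adjusted p = 1.72e-06). NKX2-5, a homeobox factor of heart development, was at 6.32, 2.95 and 20.2 and 169, 71.9 and 123 (log2 change -3.53 ± 0.57, adjusted p = 0.000153), or a log2 change of -4.67 without HIF-2α replicate 3. For this pair WT cells did not resemble the mutant line. They held 13.9 ± 5.05 counts of TMC6 and 2.59 ± 1.41 of NKX2-5, and the R27E line held 77.2 ± 34.9 and 69.5 ± 17.8, so that the mutant lines were high and WT and HIF-2α cells low.

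In the other 8 of these 10 genes, WT cells had more reads than HIF-2α cells. ALOX5AP, which serves leukotriene synthesis, was at 61.6, 20.7 and 23.4 against 472, 409.5 and 402, and at 798 ± 277 in WT cells. MAL2, a membrane protein of epithelial transcytosis, was at 93.2, 157 and 169 against 1108, 1173 and 1374 (log2 change -3.12 ± 0.21, adjusted p = 4.92e-11). KCNJ16, an inward rectifier potassium channel of the kidney tubule, was at 36.3, 53.2 and 31.9 against 211, 416 and 416. RCSD1, which codes for a protein that binds an actin-capping factor, was at 13.9 against 151, and ACSL5, an acyl-CoA synthetase, at 18.9 against 180.0. CLDN2, the pore-forming claudin of the proximal tubule, had 47.4, 59.1 and 23.4 counts with HIF-2α and 345, 555 and 313 with HIF-2αDM. Its call was lost without HIF-2α replicate 1 or 3 or HIF-2αDM replicate 2, at log2 changes of -3.33 to -2.92. CCL2 and IL18 complete the 10 and are described with the chemokines.

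**Figure D2:**
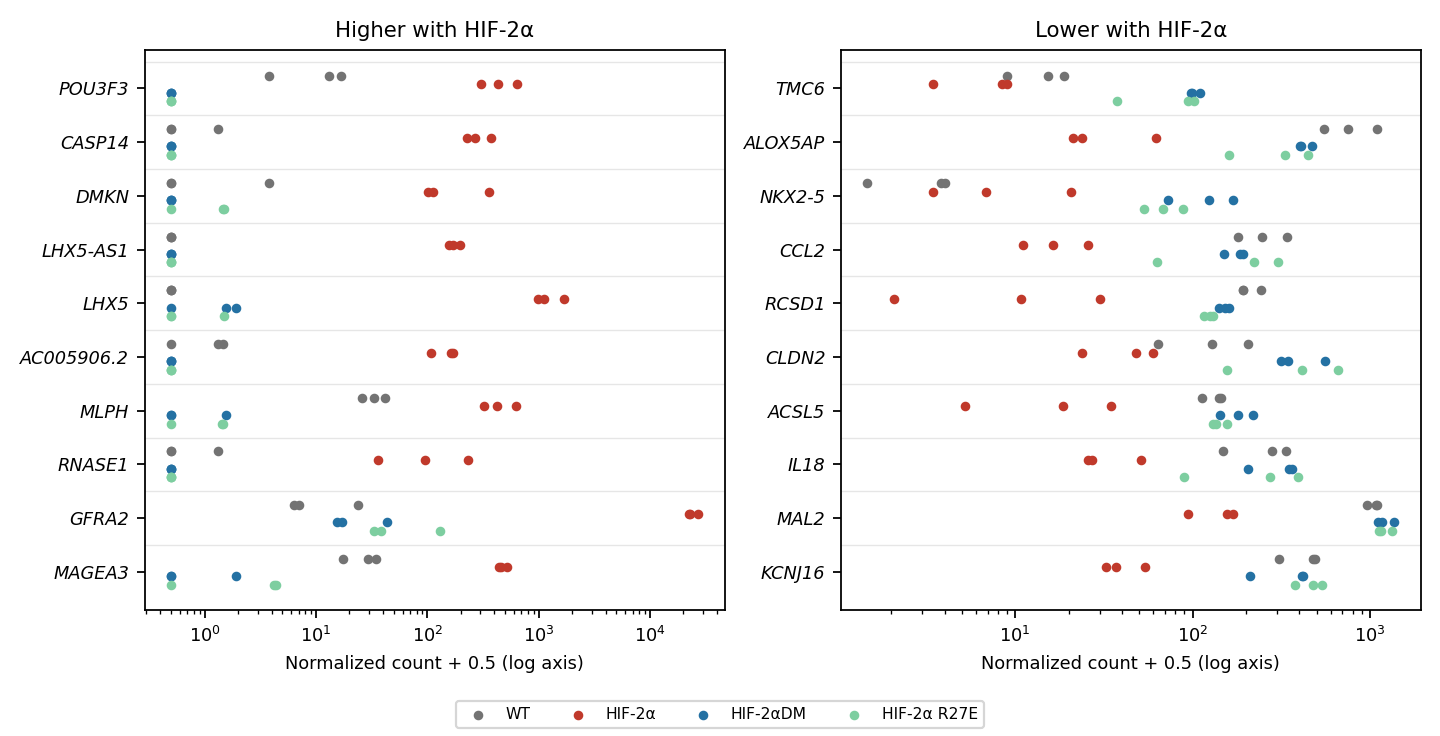
Normalized counts plus 0.5 on a log axis for the 10 called genes with the largest rise (left) and the largest fall (right) among those with a mean of at least 50 counts and no overlap, each point a library of WT, HIF-2α, HIF-2αDM or HIF-2α R27E cells. That HIF-2α libraries lie apart from HIF-2αDM libraries follows from the choice of genes. For TMC6 and NKX2-5 the WT libraries lie beside the HIF-2α ones.

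The largest differences in normalized count, which also depend on a gene's length, were at other genes. IGFBP3, a carrier of insulin-like growth factors, was at 597513, 527262 and 499507 with HIF-2α and at 37200.1, 38986 and 37783 with HIF-2αDM (log2 change 3.83 ± 0.22, adjusted p = 2.37e-12). NDRG1, a stress-response gene used as a hypoxia marker, was at 513534, 395054 and 431152 against 20472, 21608 and 18501 (log2 change 4.47 ± 0.26, adjusted p = 5.22e-12). For SYNPO, the actin-binding synaptopodin, and TGFBI, a secreted matrix protein, the log2 changes were 3.10 ± 0.27 and 1.36 ± 0.17. WT cells held 30692 counts of IGFBP3, 48724 of SYNPO and 192103 of TGFBI, and HIF-2αDM against WT did not pass the test for any of the 3. The largest falls by count were FN1 (fibronectin), from 227008, 258006 and 171899 with HIF-2αDM to 45814, 40212 and 38431 with HIF-2α (log2 change -2.40 ± 0.33, adjusted p = 9.96e-06), and AKR1B1 (aldose reductase), from 299812, 216154 and 204539 to 74802, 65850.4 and 66992 (log2 change -1.79 ± 0.22, adjusted p = 1.6e-06). CSF1, the macrophage growth factor, fell from 54104 to 20596.

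Of 8 genes that the study used as examples, 4 were higher. The study calls HSD3B7, PLXNA2 and TGFA responsive to HIF-2α, and PPFIA4, PTPRN and PGK1 responsive to HIF-1α. CPE, a carboxypeptidase that processes peptide hormones, was at 15869.6, 11259.9 and 11094 against 109.9, 181 and 183 (log2 change 6.33 ± 0.46, adjusted p = 1.48e-10). HSD3B7, an enzyme of bile acid synthesis, and PLXNA2, a semaphorin receptor, rose by 3.76 ± 0.20 and 3.30 ± 0.25 on the log2 scale. TGFA, an EGFR ligand, was at 61067, 64782 and 49582 against 11258, 14074 and 12172 (log2 change 2.23 ± 0.17, adjusted p = 3.35e-10). The other 4 were not called. PPFIA4, a liprin, was at 215, 146 and 308 against 67.1, 86.5 and 75.7 (log2 change 1.55 ± 0.51, adjusted p = 0.0562) with no overlap, and was called in 3 of 12 alternative fits, among them the replicate block (1.52 to 1.57). PGK1, a glycolytic kinase, was at 22464 ± 7363 against 24853 ± 3906. PTPRN was near the detection limit in both lines, at 2.08 and 0.967. GPRC5C, an orphan receptor, was at 434 ± 88.7 and 384 ± 134, while WT cells had 14.0 ± 8.90 and R27E cells 288 ± 108, so that all 3 HIF-2α transgene lines were above WT. The study picked several of these 8 genes on samples of this series, so that their count is not independent evidence.

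Angiogenic genes that were called were all higher. Of 17 ligands and receptors tested, 7 were higher and none lower, against 2.48% and 1.48% of all genes, and their median log2 change was 1.50 against -0.05 over all genes tested. PGF, placental growth factor, was at 3127, 3583 and 3476 against 180.4, 262 and 246 (log2 change 3.89 ± 0.32, adjusted p = 1.58e-09). APLN, the ligand apelin (chrX:129645259-129654956, minus strand), was at 7637, 6913 and 7776 against 669.7, 772 and 726 (log2 change 3.36 ± 0.16, adjusted p = 2.92e-13). ANGPTL4, an angiopoietin-like inhibitor of lipoprotein lipase, and EDN1, the vasoconstrictor endothelin-1, rose by 3.20 ± 0.25 and 2.67 ± 0.22. VEGFA, named here after its values were seen because it is the textbook target, was at 75815, 69382 and 77100.3 against 13485, 14325 and 12855 (log2 change 2.45 ± 0.14, adjusted p = 2.21e-12). Among members with most reads that were not called, VEGFB had a log2 change of 0.91 ± 0.22 with an adjusted p of 0.00773, short of the 2-fold limit, and the receptor NRP2 one of -0.60 ± 0.13 (adjusted p = 0.00301).

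Growth factor genes that passed went in both directions. Of 21 growth factors and cell cycle regulators tested, 8 were higher and 2 lower (median log2 change -0.02). IGFBP3, TGFA and CDKN1C were among the higher ones. CDKN1C, the inhibitor p57, was at 120.0, 179 and 126 against 24.3, 20.8 and 15.4, and its call was lost without HIF-2α replicate 2 or without any 1 of the HIF-2αDM libraries (log2 changes of 2.61 to 2.97). CCND1, or cyclin D1, named for its known part in renal carcinoma after its values were seen, was at 88430.5, 93921 and 122035 against 31485, 26472 and 29717 (log2 change 1.80 ± 0.22, adjusted p = 1.51e-06). The 2 that fell are EGFR ligands like TGFA. AREG, amphiregulin, was at 75.8, 142 and 118 with HIF-2α and 839, 992 and 947 with HIF-2αDM (log2 change -3.04 ± 0.23, adjusted p = 2.61e-10), and EREG, epiregulin, at 1587, 2281 and 2096 and 9842, 12172 and 12737 (log2 change -2.54 ± 0.20, adjusted p = 6.18e-10). TGFA thus rose where AREG and EREG fell. No library of one line overlapped the other for the 3 genes, which was so for every called gene and is not further evidence. None of 23 proliferation and DNA replication genes was called (median log2 change -0.04). With 2.48% of all genes tested higher and 1.48% lower, a list this short may hold no called gene, and the count is not read as its trait.

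Of 29 genes of glucose uptake and glycolysis, 8 were higher and none lower (median log2 change 0.32). Shares over all genes tested were 2.48% higher and 1.48% lower. The glucose transporter SLC2A1 (GLUT1) was at 421897, 403746 and 417903 against 128397, 143042 and 120886 (log2 change 1.66 ± 0.17, adjusted p = 5.82e-08), and SLC2A3 (GLUT3) rose by 1.79 ± 0.25. HK2, which phosphorylates glucose, and ENO2, the neuronal enolase, rose by 1.61 ± 0.19 and 2.06 ± 0.22. The uncalled list members with most reads, not scaled for length, were PKM and ENO1. PKM was at 594841 ± 85547 against 461823 ± 72287 (adjusted p = 0.272) and ENO1 at 272422 ± 53163 against 301828 ± 56330.0 (adjusted p = 0.809). Of 12 genes of pH control, mitophagy and respiration, 3 were higher and 1 lower. The single fall on this short list is not read against the shares over all genes. CA12, a membrane carbonic anhydrase, was at 61735, 49144 and 40566 against 9053, 11857 and 9259.9 (log2 change 2.33 ± 0.25, adjusted p = 1.46e-07). CA9, the hypoxia marker carbonic anhydrase 9, stayed low in the HIF-2α line, at 41.1, 5.91 and 18.1 against 2.31, 0 and 0, a ratio of 33.9 with a counting interval of 8.89 to 288. The CA9 ratio was 21.1 without HIF-2α replicate 1 and 19.0 without HIF-2αDM replicate 3, and without HIF-2αDM replicate 1, which held the reads of that line, CA9 was at least 16.6-fold higher. BNIP3L, a mitophagy receptor, rose by 1.40 ± 0.16, while the cytosolic CA2 fell from 1680.4 to 436 (log2 change -1.95 ± 0.23, adjusted p = 1.3e-06).

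Of 35 genes of the matrix, collagen modification and the plasminogen system, 10 were higher and 2 lower (median log2 change 0.39). This was the longest list. Over all genes tested, 2.48% were higher and 1.48% lower. LOX, the collagen cross-linking oxidase, was at 5530.0, 6211 and 6047 against 601, 657 and 757 (log2 change 3.14 ± 0.21, adjusted p = 5.68e-11). COL6A3 was at 87920.3, 77369 and 89225 against 8572, 11742 and 9188 (log2 change 3.11 ± 0.20, adjusted p = 1.47e-11), and COL5A1 rose by 3.32 ± 0.49. TIMP3, a metalloproteinase inhibitor, was at 169, 189 and 164 against 0, 2.08 and 0, a ratio of 281 with a counting interval of 77.2 to 2327. The TIMP3 ratio was 158 without HIF-2αDM replicate 3, and without replicate 2 TIMP3 was at least 125-fold higher. TIMP3 lies on the opposite strand within SYN3, a synapsin gene that also rose, from 0, 0 and 2.10 to 663, 547 and 689, and reads on stretches annotated to both were dropped, while strand was ignored elsewhere. Besides FN1, the basement membrane collagen gene COL4A1 was lower. It fell from 98268, 90016 and 104296 to 27980.0, 31159 and 49169.9 (log2 change -1.43 ± 0.27, adjusted p = 0.00048), and its neighbour COL4A2, at 58487 ± 19549 against 128181 ± 13359.8, did not pass (adjusted p = 0.0143). COL4A2 was called lower in 5 of 12 alternative fits, among them DESeq2 and the one without HIF-2α replicate 3 (-1.43 to -1.08).

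In 20 classic hypoxia response genes, 7 were higher and none lower (median log2 change 0.61). PTHLH, parathyroid hormone-like hormone, was at 13322, 10039.8 and 9464 against 539, 743 and 538 (log2 change 4.17 ± 0.21, adjusted p = 2.92e-13), and STC1, stanniocalcin, at 1810.2, 1591 and 1204 against 150.4, 152 and 139 (log2 change 3.38 ± 0.28, adjusted p = 1.82e-09). Among 18 genes of oxygen sensing and feedback, 3 were higher. EGLN3, the prolyl hydroxylase PHD3 that marks HIF-α for VHL, was at 64562, 59982 and 62706 against 4319, 5054 and 5301 (log2 change 3.67 ± 0.26, adjusted p = 1.03e-10). LIMD1, a scaffold that brings PHDs to VHL, and BHLHE40, a repressor also called DEC1, rose by 1.19 ± 0.22 and 1.17 ± 0.17. Of 14 iron, heme and erythropoietin genes, EPO alone was called. The hormone gene was at 191, 137 and 167 with HIF-2α and at 1.16, 1.04 and 2.80 with HIF-2αDM (log2 change 6.44 ± 0.81, adjusted p = 2.7e-06), with 1.48 ± 1.24 in WT cells and 10.6 ± 7.00 in R27E cells. The EPO log2 change was 7.08 without HIF-2αDM replicate 3. The ferritin genes FTL and FTH1, with most reads on this list, had log2 changes of -0.40 ± 0.27 and -0.14 ± 0.31 (adjusted p = 0.444 and 0.864). Of 17 bHLH-PAS family genes HIF1A alone was called, and none of 17 oxygen-dependent histone demethylases was. Shares over all genes tested were 2.48% higher and 1.48% lower. Counts of 0 or 1 on the short iron, bHLH-PAS and demethylase lists are not read against them.

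Of 20 chemokine, cytokine and receptor genes tested, 5 were lower and 2 higher (median log2 change -0.49). Shares over all genes tested were 1.48% lower and 2.48% higher. CCL2, which attracts monocytes, was at 15.8, 25.1 and 10.6 with HIF-2α and 192, 183 and 150.0 with HIF-2αDM (log2 change -3.37 ± 0.50, adjusted p = 2.53e-05), and IL18 at 50.5, 25.1 and 26.6 and 361, 350.1 and 206 (log2 change -3.18 ± 0.53, adjusted p = 0.000121). The 2 that rose are receptors of the same ligand, CXCL12. ACKR3 was at 38059, 25236 and 20173 against 604, 669 and 422 (log2 change 5.62 ± 0.35, adjusted p = 9.07e-12), and CXCR4 at 147, 85.7 and 55.3 against 1.16, 1.04 and 3.51 (log2 change 5.47 ± 0.89, adjusted p = 0.000115), or a log2 change of 6.29 without HIF-2αDM replicate 3. Receptor genes did not all rise. Over all genes tested, the cytokine receptor genes IL1R1 (log2 change -1.75), IL18R1 (-1.47) and IL15RA (-1.90) were called lower and IL21R (2.61) higher. These were named after their values were seen. IL32, with most reads on the list, was at 40731 ± 3098 against 65002 ± 12736 (adjusted p = 0.0306).

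Of 23 interferon-stimulated genes, 2 were lower, and the median log2 change of the 23 was -0.72. Shares over all genes tested were 2.48% higher and 1.48% lower. Counts of 1 or 2 genes on the short lists of this paragraph are not read against them. IFIT3 was at 556, 495 and 411 against 1470.2, 1675 and 1181 (log2 change -1.57 ± 0.39, adjusted p = 0.00865), and its call was lost in 8 of 12 alternative fits, among them those that left out any 1 of the 6 libraries (-1.69 to -1.44 over the 8). IFIH1, an RNA sensor, had a log2 change of -1.07 ± 0.23 and lost its call without HIF-2α replicate 1 or 2 or HIF-2αDM replicate 1 or 3 (-1.08 to -0.87). Among 23 genes of lipid storage and fatty acid handling, 1 was higher and 2 lower. The receptor LRP1 was at 30626, 26332 and 27981 against 7209.6, 7589 and 6389 (log2 change 2.00 ± 0.22, adjusted p = 4.13e-07), and DGAT2, which makes triglyceride, fell from 1399 to 407 (log2 change -1.78 ± 0.16, adjusted p = 8.52e-09). The fatty acid desaturase SCD fell from 31902, 40298 and 32119 to 19414, 10676 and 9727, and its call was lost without HIF-2α replicate 2 or 3 or HIF-2αDM replicate 2 (-1.27 to -1.20). In 20 genes of the unfolded protein and amino acid response, 2 were lower. SLC7A11, the cystine transporter, had a log2 change of -1.50 ± 0.22, and PSAT1, of serine synthesis, one of -1.13 ± 0.22, which was -0.97 and under the fold limit without HIF-2αDM replicate 1. Of 19 genes of epithelial-mesenchymal transition and adhesion, the fibronectin receptor chain ITGA5 alone was called (log2 change 1.00 ± 0.16, adjusted p = 0.0001), and it was 0.96 to 0.99 without HIF-2α replicate 1 or 3 or HIF-2αDM replicate 1.

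**Figure D3:**
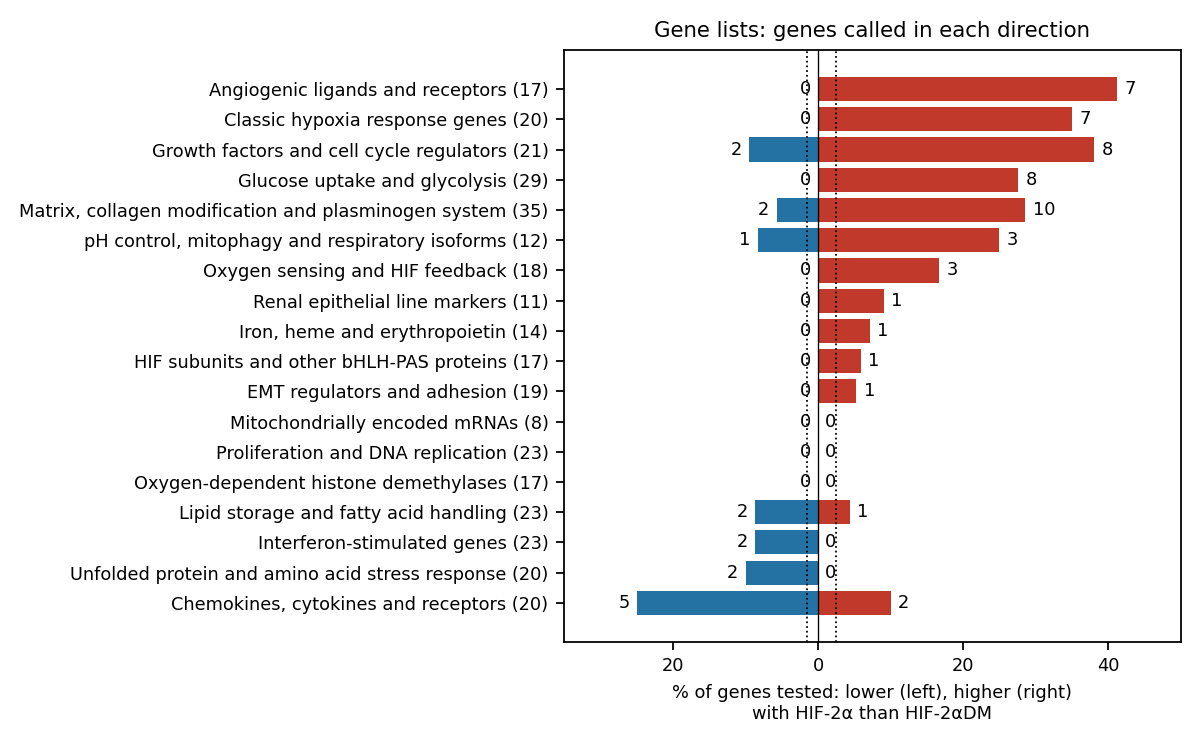
Share of the tested genes of each list with at least 8 genes tested, the study's examples left out (number tested in brackets), that was called higher (right, red) or lower (left, blue) with HIF-2α than with HIF-2αDM, with the number of genes at the bar ends. Dotted lines mark the shares over all genes tested, 2.48% and 1.48%. Angiogenic and classic hypoxia genes show rises and no falls, and of the lists drawn chemokines show the largest share of falls.

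All 11 markers of the renal epithelial line were tested and summed to 254041 to 322952 counts with HIF-2α and 246538 to 298092 with HIF-2αDM, with CA9 the single called gene. Markers of immune and endothelial cells were scarce. Of 7 immune markers 2 were tested, with sums of 14.9 to 33.2 and 3.47 to 31.3, and those under the expression filter included PTPRC, CD3E, LYZ and HBB. Of 5 endothelial markers 4 were tested, with sums of 32.5 to 91.4 and 16.7 to 37.2, and PECAM1 was under the filter. Fibroblast markers summed to 1562 to 2582 and 970.2 to 1260, and 2 of 4 tested were lower, LUM at 0, 2.95 and 5.31 against 48.6, 28.1 and 56.8 and PDGFRB at 92.5 against 194. Of the other 2, COL3A1 had a mean of at most 1.02 counts in either line, and COL1A1 was at 1463, 1554 and 2470 against 1011, 749 and 960 (log2 change 1.01 ± 0.31, adjusted p = 0.0357), with no overlap, and was called higher in 3 of 12 alternative fits (1.02 to 1.07). The PDGFRB call was lost in 8 of 12 alternative fits, among them those without any 1 of the 6 libraries (-1.18 to -0.92 over the 8). In bulk RNA fewer cells of a type and less RNA per cell cannot be told apart, and the part of these markers in the results was not tested. None of 8 mitochondrially encoded mRNAs was called (median log2 change -0.02), a list too short to set against 2.48% and 1.48% of all genes tested.

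The same libraries were set beside WT cells. HIF-2α cells differed from WT by 884 higher (3.78%) and 455 lower genes (1.94%), and HIF-2αDM cells by 103 higher (0.440%) and 8 lower genes (0.0342%). These comparisons share libraries with each other and with the one between HIF-2α and HIF-2αDM. EGLN3 was at 4891 in the mutant line and 5793 in WT cells, and CA12 at 10057 and 11960.2. Without WT replicate 1, 2 or 3 the genes higher with HIF-2αDM than in WT cells numbered 58, 62 and 63, and without HIF-2αDM replicate 2 they numbered 67. Several genes that differed between HIF-2α and HIF-2αDM differed from WT cells in the mutant line. PGF was higher with HIF-2αDM than in WT cells (1.65 ± 0.31, adjusted p = 0.00368), although lower than with HIF-2α. MLPH (-6.26 ± 0.69, adjusted p = 4.97e-06), MAGEA3 (-5.19 ± 0.70, adjusted p = 4.81e-05) and POU3F3 (-6.44 ± 1.19, adjusted p = 0.00614) were lower than in WT cells, and NKX2-5 (5.43 ± 0.64, adjusted p = 2.12e-05) and TMC6 (2.88 ± 0.43, adjusted p = 0.000208) were higher.

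HIF-2αDM and HIF-2α R27E, one made unable to pair and the other to bind DNA, differed at 6 genes. HIF-2αDM was higher than R27E for 1 gene (0.00427% of those tested) and lower for 5 (0.0214%) by edgeR, with 1017 genes at an unadjusted p under 0.05, and DESeq2 called 6 and 17. NDRG1 was at 20472, 21608 and 18501 with HIF-2αDM and 56287, 71516 and 84609.7 with R27E (-1.81 ± 0.24, adjusted p = 0.000889). The tissue factor gene F3 was at 1677, 1778 and 2089 and 3993, 3670.4 and 4625, the potassium channel subunit KCNMB4 at 378, 303 and 279 and 775, 867 and 707, and the collagen gene COL5A2 at 917, 1245 and 1259.9 and 2417, 3181 and 4167. TRABD2A, which codes for a Wnt-cleaving protease, was at 299.6, 430.4 and 341 and 1002, 915 and 763. CHST1, a sulfotransferase, was the gene higher with HIF-2αDM, at 159.6, 174 and 174 against 24.1, 18.3 and 51.0. These 6 genes are the whole set. Without HIF-2αDM replicate 1 or 3 no gene was called, and without HIF-2αDM replicate 2, R27E replicate 1 or R27E replicate 2 none was called higher and 2, 3 and 1 were called lower.

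The called genes were also read in libraries outside the comparison. In the second batch, made with another kit, HIF-2α cells were compared with WT cells, where 5.45% of 28724 genes tested were higher and 2.13% lower. Of the 581 genes higher with HIF-2α than with HIF-2αDM, 497 (85.5%, and 31.7% of the genes higher there) were called higher there and none lower, with a median log2 change of 2.04 against 0.07 over all genes. Of the 347 lower genes, 242 (69.7%, and 39.6% of the genes lower there) were called lower and 5 higher. GFRA2, IGFBP3 and CPE rose there by 11.16, 4.92 and 6.96 on the log2 scale, and ALOX5AP, FN1 and KCNJ16 had log2 changes of -4.58, -2.20 and -3.83. TMC6 (0.17 ± 0.63, adjusted p = 0.887) and NKX2-5 (0.34 ± 0.54, adjusted p = 0.696) did not pass there. Sets of 5 or fewer genes are named in full, after their values were seen. Those called in the opposite direction were GDF15 (1.16), PIK3AP1 (1.12), RAB3IL1 (1.61), LGALS9 (5.53) and SGSH (1.08), given as log2 changes of the second batch. In the first batch GDF15 was at 509.9 with HIF-2α, 1122 with HIF-2αDM, 1613 with R27E and 365 in WT cells, so that its level in WT cells was below that in each of the 3 transgene lines, and the same order of WT below HIF-2α below both mutants held for PIK3AP1, RAB3IL1, LGALS9 and SGSH.

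The R27E line was compared with WT cells as a further set apart from the 6 libraries, with 0.449% of genes higher and 0.0470% lower. Its 105 higher genes became 55 without WT replicate 1 and 58 without WT replicate 2. With only the libraries of these groups fitted, 2 genes were higher and 1 lower, so that the shares below depend on the joint fit. Of the 581 higher genes, 31 (5.34%, and 29.5% of the genes higher with R27E) were higher with R27E than in WT cells and 5 lower, and their median log2 change was 0.25. Of the 347 lower genes, 16 (4.61%, and 15.2%) were higher and 2 lower. The 5 that rose with HIF-2α and lay below WT with R27E were POU3F3, MLPH, MAGEA3, SLC38A5 and LTBP1. SLC38A5, a glutamine transporter, had mean counts of 7593 with HIF-2α, 230.5 in WT cells, 24.5 with R27E and 23.9 with HIF-2αDM. LTBP1, which binds latent TGF-β, had 649 with HIF-2α, 137 in WT cells, 49.8 with R27E and 63.7 with HIF-2αDM. The pair lower in both comparisons was LIPG and SGPP2, with 6311 and 802 counts in WT cells, 4860 and 335 with HIF-2αDM, 2524 and 377 with R27E, and 1836 and 78.7 with HIF-2α.

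**Figure D4:**
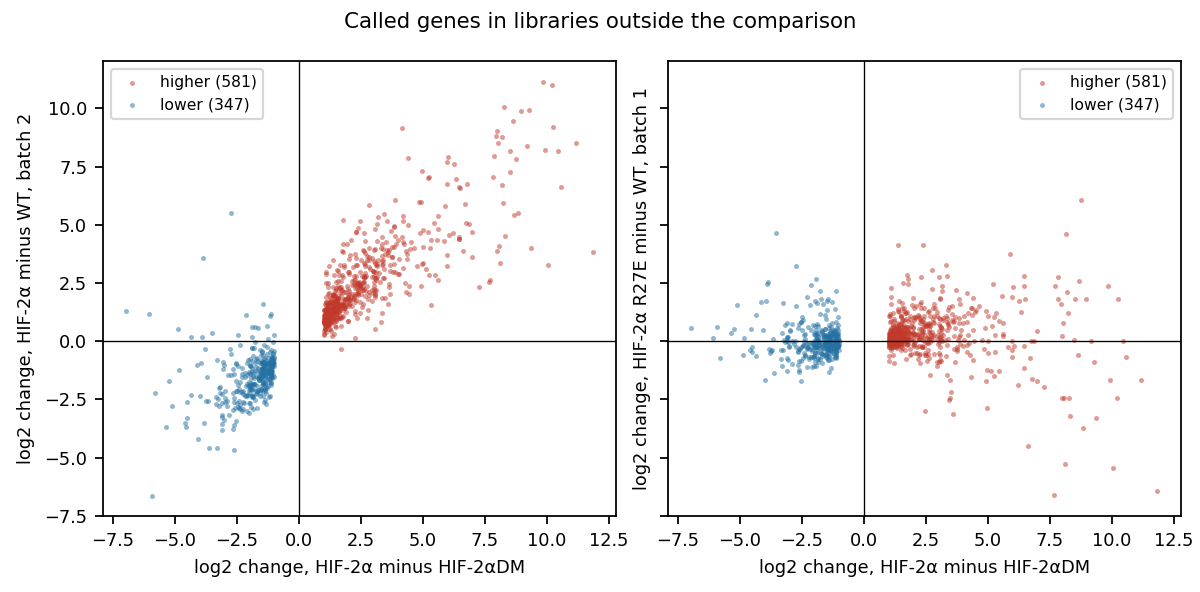
Log2 change of the 581 higher (red) and 347 lower (blue) genes between HIF-2α and HIF-2αDM (x axis) against their log2 change in libraries outside that comparison (y axis), HIF-2α minus WT of the second batch on the left and HIF-2α R27E minus WT of the first batch on the right. On the left 497 of the red genes were called higher and none lower, and on the right 31 were called higher and 5 lower.

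The HIF-1α and HIF-1αDM lines were set beside the HIF-2α pair. HIF1A itself had a log2 change of 0.43 between HIF-1α and HIF-1αDM cells, under the fold limit. All these lines hold endogenous HIF-2α and lack functional endogenous HIF-1α, so that the pairs differ in background. The part of transgene level and background in the numbers below was not tested. HIF-1α cells differed from HIF-1αDM cells by 283 higher (1.21%) and 37 lower genes (0.158%), and leaving out HIF-1αDM replicate 1 brought the higher genes to 182. The lower genes were 15 to 21 without HIF-1α replicate 1 or 2 or HIF-1αDM replicate 1 or 3. No library is shared with the HIF-2α pair. Of the 581 genes, 167 (28.7%) were higher with HIF-1α too, which is 59.0% of the HIF-1α list, and none was lower. Of the 347 lower genes 21 (6.05%, and 56.8% of the HIF-1α list) were lower and 3 higher. The 3 were TRPA1, ESAM, an endothelial adhesion molecule, and L1CAM, a neural one, with log2 changes of 2.75, 1.30 and 1.22 in the HIF-1α pair and -1.67, -1.30 and -1.48 in the HIF-2α pair. The difference between both dimerization effects was tested in 1 fit. It was called for 108 genes in the HIF-2α direction (0.461%) and 109 in the other (0.466%), which became 71 without HIF-1αDM replicate 3. Of the 108, 86 were called higher in the HIF-2α pair alone and 19 in both pairs. Of the 109, 65 were lower in the HIF-2α pair alone and 24 were higher in the HIF-1α pair alone.

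LHX5, SYN3, NKD2, COL23A1 and ALPG led the HIF-2α side. NKD2, an inhibitor of Wnt signalling, was at 717, 606 and 468 with HIF-2α and 4.63, 3.13 and 0 with HIF-2αDM, and at 0, 16.7 and 7.28 with HIF-1α and 9.96, 10.7 and 1.68 with HIF-1αDM. COL23A1, a transmembrane collagen, was at 390.1, 352 and 510.1 with HIF-2α, and no HIF-2αDM, HIF-1α or HIF-1αDM library exceeded 8.50 counts. ALPG, a placental-type alkaline phosphatase with near-identical paralogs, rose in both pairs, to 1956 ± 90.7 with HIF-2α and 36.0 ± 13.8 with HIF-1α. On the other side, ALDOC, the glycolytic aldolase C, was at 5473, 4868 and 2748 with HIF-1α and 349.6, 436 and 233 with HIF-1αDM, but at 273, 121 and 141 with HIF-2α and 249, 294 and 198 with HIF-2αDM, which overlapped. TFR2, transferrin receptor 2, was at 592 ± 79.9 and 26.4 ± 11.6 in the HIF-1α pair and at 32.6 ± 10.8 and 23.5 ± 11.4 in the HIF-2α pair. CEMIP, which takes part in hyaluronan breakdown, was at 361 ± 121 and 26.5 ± 10.1 against 29.1 ± 14.3 and 49.2 ± 27.2. TRPA1, an ion channel, was called in opposite directions, at 150.2, 118 and 194 against 17.9, 25.4 and 25.1 for HIF-1α and 12.6, 2.95 and 9.56 against 30.1, 16.7 and 33.7 for HIF-2α. Its fall in the HIF-2α pair (log2 change -1.67 ± 0.42, adjusted p = 0.00869) was lost in 7 of 12 alternative fits, among them those without HIF-2α replicate 2 or 3 or HIF-2αDM replicate 1 or 3 (-1.78 to -1.28 over the 7).

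**Figure D5:**
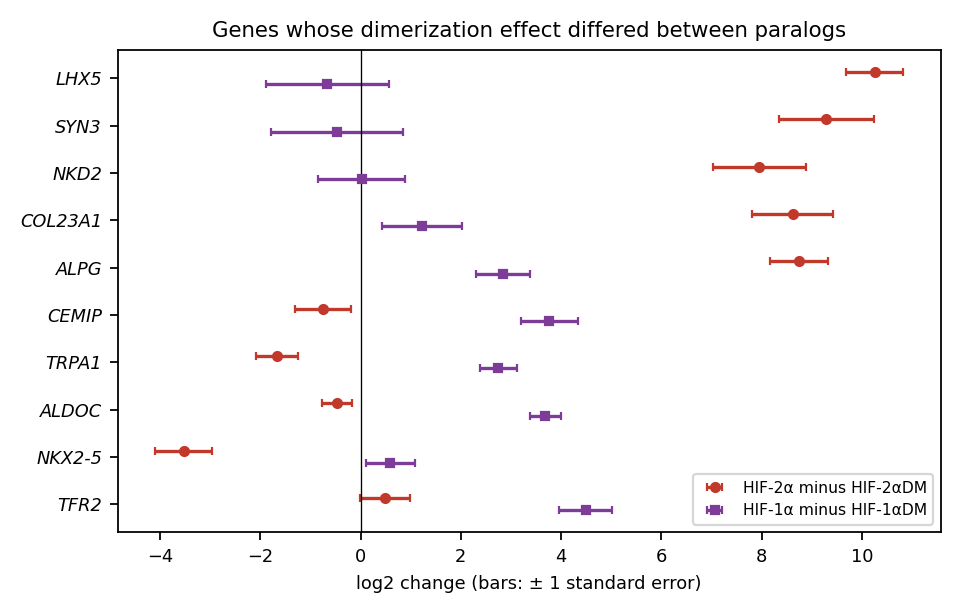
Log2 change by dimerization for HIF-2α (circles, HIF-2α minus HIF-2αDM) and HIF-1α (squares, HIF-1α minus HIF-1αDM), with standard errors, for the 5 genes per direction with the largest called difference between them. LHX5, SYN3, NKD2 and COL23A1 lie near 0 or within 2 log2 units of it for HIF-1α, and CEMIP, ALDOC and TFR2 lie within 1 log2 unit of 0 for HIF-2α.

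Promoters of the called genes were searched for the core of the site that the HIF pair recognises. RefSeq promoters on GRCh38.p14, 250 bases before to 50 after the start, were matched by symbol for 390 of the 581 higher genes, 234 of the 347 lower genes and 12661 of all genes tested. ACGTG or GCGTG on either strand was present in 54.1% of the promoters of higher genes, 56.0% of those of lower genes and 60.5% of those of all genes tested. For ACGTG alone the shares were 22.8%, 19.7% and 25.7%. A palindromic CACGTG counts on both strands and overlaps itself. In this window both shares of the called genes lay below that of all genes tested, and no test was run. Windows around the match nearest the start are shown for 3 genes higher with HIF-2α that are known for metabolism or HIF feedback (CA9, HK2 and BHLHE40), for APLN as an angiogenic ligand, for NKD2 and COL23A1 as genes of the HIF-2α side of the paralog comparison, and for AREG as a gene that fell. Matches are in capitals, and each sequence runs 5′ to 3′ on the strand of the gene.
CA9, chr9:35673880-35673927, plus strand: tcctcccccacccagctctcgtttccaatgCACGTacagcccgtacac
HK2, chr2:74834049-74834113, plus strand: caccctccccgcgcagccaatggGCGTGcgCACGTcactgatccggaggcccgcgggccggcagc
BHLHE40, chr3:4979258-4979322, plus strand: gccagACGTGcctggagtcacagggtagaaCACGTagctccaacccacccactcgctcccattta
APLN, chrX:129655064-129655128, minus strand: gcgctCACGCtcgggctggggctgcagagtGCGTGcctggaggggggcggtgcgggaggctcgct
NKD2, chr5:1008763-1008801, plus strand: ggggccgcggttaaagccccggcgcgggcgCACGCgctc
COL23A1, chr5:178590506-178590570, minus strand: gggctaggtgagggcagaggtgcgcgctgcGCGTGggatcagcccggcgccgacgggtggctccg
AREG, chr4:74444982-74445046, plus strand: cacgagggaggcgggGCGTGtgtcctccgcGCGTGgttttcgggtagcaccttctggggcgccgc

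HK2, BHLHE40, APLN and AREG held a pair of matches within the 65 bases shown and CA9, NKD2 and COL23A1 a single one. AREG was lower with HIF-2α, and the other 6 were higher. A match is a description of the sequence and not a measured binding site.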

How the data were processed

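Poly-A RNA of 786-O lines was sequenced, and per the labels the authors deposited a raw count per gene and library. They had aligned reads to hg38 with STAR, kept uniquely mapped reads and used HTSeq's union mode on a GENCODE annotation, ignoring strand. Versions differ between sources, and the submitters' processing notes list STAR 2.7, SAMtools 1.9 and HTSeq 0.11.1. Reads that map to several places or to overlapping genes were dropped, so that paralogs and overlapping genes are uncertain.

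Samples were grouped by their labels. Genes averaging under 0.5 normalized counts were left out, which kept 23410 of 60609 genes of batch 1 and 28724 of batch 2. All 27 libraries of the first batch, or 15 of the second, were fitted together with edgeR 4.0.16 (R 4.3.3, limma 3.58.1) by its quasi-likelihood test with TMM factors (0.822 to 0.924 for HIF-2α, 0.943 to 1.02 for HIF-2αDM) and Benjamini-Hochberg adjustment. DESeq2 1.42.0, other scalings and filters, a replicate block, smaller fits and leaving out each library were alternatives. The fit was tested on simulated data. Floors and intervals (95%, exact) cover counting error only.

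Genes named are the HIF subunits and the study's examples, the 10 per direction with the largest log2 change and the 5 with the largest count difference (called, mean of at least 50 for the former, libraries not overlapping), up to 4 called and 2 uncalled genes of each list, and the 5 per direction with the largest difference between paralogs (mean of at least 50 over 12 libraries, libraries of at least 1 pair not overlapping). Some genes that this rule selects are not reported here. Members and gene lists were chosen with earlier results of these data known. Gene positions are from GENCODE release 44. Signal tracks were not used here.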

Additional observations from a re-analysis of the deposited data

Results flagged for a closer look

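The 10 genes below were taken by rule from those called in the interaction test between the HIF-2α and HIF-1α pairs, for the largest differences. That they passed this test follows from the choice. The difference in log2 change, HIF-2α pair minus HIF-1α pair, was 10.91 for LHX5, 9.75 for SYN3, 7.93 for NKD2, 7.39 for COL23A1 and 5.91 for ALPG. It was -4.51 for CEMIP, -4.41 for TRPA1, -4.16 for ALDOC, -4.12 for NKX2-5 and -4.01 for TFR2. Adjusted p-values of edgeR's test ran from 7.85e-07 for ALDOC to 0.00552 for SYN3. LHX5 and SYN3 had at most 4.17 counts in any library of either mutant line or of the HIF-1α line, so that the size of their difference depends on the prior count of the fit.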

How the results depend on the processing

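Counts of called genes in the main comparison stayed within 1.5 times of 581 and 347 in every alternative that kept the fold limit. Without it, at an adjusted p of at most 0.01, lower genes numbered 525. No paired reading was adopted. Same-numbered libraries deviated together with correlations of 0.110, 0.0971 and 0.359, not above 0.1 for each number. Their mean was 0.189, against -0.094 for libraries of unlike number, and replicate 3 had the most reads in both lines. Whether same-numbered libraries were handled together was not tested. The replicate block gave 753 higher and 501 lower genes. Calls in every alternative numbered 375 and 190.

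The small comparisons moved more. HIF-2αDM against WT gave 182 higher and 18 lower genes with DESeq2, 174 and 35 with no filter on low counts, 189 and 20 with the replicate block, 18 lower ones with the libraries of these groups alone, and 58 to 87 and 4 to 7 with 1 library left out. HIF-2αDM against R27E gave 6 and 17, 12 and 28, 6 and 20 under the first 3 of these, 0 and 0 with its own libraries, and 0 to 1 and 0 to 4 with 1 left out. R27E against WT gave 176 and 19, 192 and 23, 187 and 26 under the same 3, 2 and 1 with its own libraries, and 55 to 113 and 4 to 8 with 1 left out. HIF-1α against HIF-1αDM gave 59 lower genes with DESeq2, 68 with the block, and 182 to 257 higher and 15 to 46 lower ones with 1 library left out. The paralog difference gave 175 and 198 with DESeq2, 176 and 192 with no filter, 195 and 248 with the block, and 76 to 108 and 71 to 95 with 1 left out. With ACGTG alone, motif shares were 22.8%, 19.7% and 25.7%.

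Log2 changes that crossed 0 belonged to uncalled genes and to fits without 1 library. ARNT ranged -0.045 to 0.23, PGK1 -0.42 to 0.064, ENO1 -0.31 to 0.0099, KRT8 -0.19 to 0.015, FTH1 -0.31 to 0.092, MT-CO1 -0.74 to 0.18, MT-CO3 -0.70 to 0.087, KDM5C -0.034 to 0.19 and CD14 -0.19 to 0.82. Of the values of named genes under alternatives, 1426 kept their direction and side of the threshold, 42 lost the call and 16 gained it. The causes were not tested.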
